A study of Mus musculus with 22 samples.

Results

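The retinal photoreceptor antigens described here are Rbp3, Sag, Gnat1, Crx, Rp1, Prph2, Opn1sw and Pde6b, a named set of 8 genes among 19752 genes measured on the array. They were chosen by name, as proteins of the light-sensing cells of the retina that include known targets of autoimmune uveitis, and each was read by the 1 probe that carries its symbol alone. RNA came from medullary epithelial cells (MECs) of the thymus of C57Bl/6 mice, sorted as viable cells without CD45, low in Ly51 and high in MHC class II, and was amplified and hybridised to Affymetrix whole-transcript arrays.

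The 22 arrays fall into 8 groups by genotype and treatment. Aire knockout (KO, Aire-/-) mice gave 2 arrays with Etopo, 3 with Topo, 2 with both agents (EtopoTopo) and 3 with the vehicle DMSO. Wild-type (WT, Aire+/+) mice gave 3 arrays for each of the same treatments. Etopo and Topo are usual short forms of etoposide, which traps type II topoisomerases on DNA, and topotecan, which traps topoisomerase I. The labels do not write the names out, and doses and times were not used here. The labelled age was 4 weeks for the 5 EtopoTopo arrays, WT DMSO 3 and WT Etopo 3, and 6 weeks for the remaining 15. All KO DMSO mice were of 6 weeks and both KO EtopoTopo mice of 4 weeks, so age and treatment cannot be told apart within KO. WT EtopoTopo 1 and 2 are titled with both agents but carry a treatment label of Etopo alone. Whether mice were pooled for an array is not stated, so the spread between replicate arrays, which sets the p-values, may be partly technical.

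Photoreceptors turn light into a fall in cyclic GMP. Light activates an opsin, the opsin activates the G protein transducin, and transducin releases a phosphodiesterase that breaks down cyclic GMP. Aire lets MECs transcribe genes of many peripheral tissues, among them eye genes, so that T cells reactive to their products are removed or diverted. Mice without Aire are known to develop inflammation of the eye, with Rbp3 as a leading target.

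Some facts of the arrays touch every result below. The deposited values are linear intensities, and all levels and changes here are on the log2 scale. A gene was called changed at a Benjamini-Hochberg adjusted p under 0.05 in limma, adjusted over all 19752 genes. The mean log2 level over markers of mature MECs was 10.73 on KO EtopoTopo 1 and 11.25 on KO EtopoTopo 2, and 11.37 to 11.49 on the KO DMSO arrays against 11.38 to 11.48 on the WT DMSO arrays. Thymocyte markers averaged 8.52 on KO DMSO 1 and 8.11 on WT DMSO 1, and at most 7.43 on the other 20 arrays. On KO EtopoTopo 1 the spread between the 10th and 90th percentile of the genes was 3.89, against 4.32 to 5.01 elsewhere. It was 4.32 and 4.33 on WT EtopoTopo 2 and 3, and 4.42 on KO Topo 1. The median of 1178 olfactory and vomeronasal receptor genes, which are silent in most tissues, was 5.99 on KO EtopoTopo 1. On the other 21 arrays it was 5.04 to 5.72. Male sex is on the labels of WT DMSO 1, WT Etopo 2 and WT Topo 2, but Xist read 11.38 to 12.56 on all 22 arrays. The Aire probe read 12.88 to 12.96 in KO DMSO MECs and 12.24 to 12.44 in WT DMSO MECs, so it does not test the deletion.

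Under DMSO, 1 of the 8 antigens fell in KO MECs: Gnat1, the alpha subunit of rod transducin. The other 7 did not pass the test, although all 8 estimates lay below 0. Their median was −0.32, against −0.01 over all genes and −0.06 over the olfactory and vomeronasal receptor genes. Of all genes, 19.4% were called in this comparison, 12% were called lower, and 51.5% had an estimate below 0. Without WT DMSO 2, 6 of 8 were below 0, with a median of −0.21. After quantile normalization 6 of 8 estimates were below 0 and their median was −0.14.

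Gnat1 (chr9:107674437-107679634, RefSeq GRCm38.p6) read 6.51, 6.66 and 6.65 on the KO DMSO arrays, against 7.63, 7.38 and 7.36 on the WT DMSO arrays. Every KO array lay below every WT array, as in 18.2% of all genes. The mean intensity was 97.5 ± 5.35 in KO DMSO MECs and 176 ± 18.6 in WT DMSO MECs (SD, n = 3 each). The Gnat1 change was −0.85 ± 0.15 on the log2 scale (SE, limma adjusted p = 0.000225), with a 95% interval of −1.16 to −0.54. Markers of some other cells moved in this comparison too. Of 10 cortical epithelial markers 3 fell and 0 rose, with list means of 9.69 to 9.94 on the KO DMSO arrays against 9.99 to 10.03 on the WT DMSO arrays. Of 13 macrophage and dendritic cell markers 4 fell and 1 rose, with list means of 7.69 to 7.85 against 7.99 to 8.21, and their part in the Gnat1 change was not tested. Of 19 mature MEC markers 2 fell and 3 rose, and of 7 B cell markers 2 fell and 1 rose. Of 12 stroma and endothelium markers 2 fell and 2 rose. No tuft-like or thymocyte marker was called, of 11 and 16 measured. For Gnat1, KO MECs held 0.554 of the WT level by this estimate, and the call was kept when any 1 of the 6 arrays was left out, with changes of −0.90 to −0.77. Without both arrays of high thymocyte markers, KO DMSO 1 and WT DMSO 1, it was −0.72 (limma adjusted p = 0.0101). In bulk RNA, fewer Gnat1-transcribing cells and less Gnat1 RNA per cell cannot be told apart.

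Gnat1 was also lower in KO MECs under each single agent. It read 6.78 and 6.69 in KO Etopo MECs, against 7.53, 7.29 and 7.31 in WT Etopo MECs, and 6.60, 6.52 and 6.77 in KO Topo MECs, against 7.15, 7.20 and 7.29 in WT Topo MECs. Neither pair of groups overlapped, with KO lower, which held for 23.9% of all genes under Etopo and 21.5% under Topo. The change was −0.64 ± 0.17 under Etopo (SE, limma adjusted p = 0.0120) and −0.58 ± 0.15 under Topo (SE, limma adjusted p = 0.00895). The percentage of all genes called was 12.6 under Etopo, with 8.07 lower, and 15 under Topo, with 9.62 lower. The Topo call was kept without any 1 of its 6 arrays. The Etopo call was lost without WT Etopo 1 (limma adjusted p = 0.0529), KO Etopo 1 (0.0712) or KO Etopo 2 (0.134), with changes of −0.69 to −0.56 over its leave-one-out fits.

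With both agents the Gnat1 difference between the genotypes did not pass the test. KO EtopoTopo MECs read 7.21 and 6.46, against 7.04, 6.80 and 7.10 in WT EtopoTopo MECs, so the 2 KO arrays lay on opposite sides of the WT group. The change was −0.15 ± 0.17 (SE, limma adjusted p = 0.644). It was −0.52 without KO EtopoTopo 1 (limma adjusted p = 0.0545) and 0.23 without KO EtopoTopo 2 (limma adjusted p = 0.300), so its direction depends on which of these arrays is kept. Each such fit leaves 1 KO EtopoTopo array, and its p-value assumes that this array varies like those of the other groups. Here 10.4% of all genes were called by limma and 0 of the 8 antigens, of which 1, Sag, had an unadjusted p under 0.05, as did 23.1% of all genes.

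**Figure D1:**
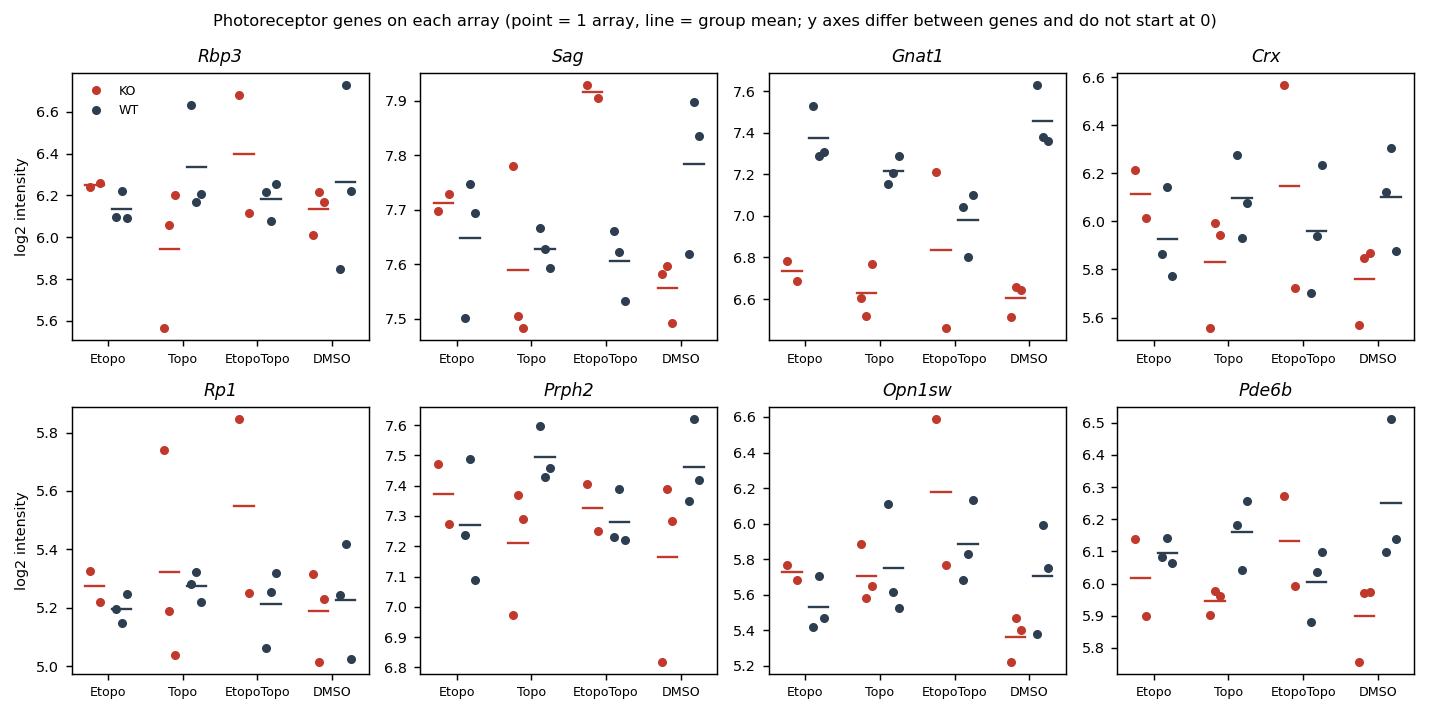
Log2 intensity of each antigen on every array, with 1 panel per gene. Points are arrays, grouped by genotype and treatment with KO left of WT and DMSO last, and short lines are group means. Gnat1 separates KO from WT, with KO lower, under Etopo, Topo and DMSO. KO also lies below WT for Sag, Crx and Pde6b under DMSO and for Prph2 and Pde6b under Topo. KO lies above WT for Rbp3 under Etopo and Sag under EtopoTopo. The other pairs overlap. Over all genes, KO lay below WT without overlap in 23.9% under Etopo, 21.5% under Topo and 18.2% under DMSO. KO lay above WT in 29.2% under Etopo and 14.6% under EtopoTopo.

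The retinoid carrier and the arrestin are the classical antigens used to induce uveitis in rodents. Rbp3 encodes the interphotoreceptor retinoid-binding protein, which carries retinoids between photoreceptors and pigment epithelium. Rbp3 (chr14:33954003-33964219) read 6.01, 6.22 and 6.17 in KO DMSO MECs, against 5.85, 6.73 and 6.22 in WT DMSO MECs. The WT arrays spanned the whole KO range. The change was −0.13 ± 0.19 (SE, limma adjusted p = 0.735), with a 95% interval of −0.53 to 0.27, and after quantile normalization it was 0.06. Under Topo the Rbp3 estimate was −0.39 ± 0.19 (SE, limma adjusted p = 0.200). It was −0.20 without KO Topo 1, which read 5.56, and −0.24 without WT Topo 1, which read 6.63. KO Topo 1 differed from the other KO Topo arrays in Aire as well, at 11.78 against 12.79 and 12.54, and in its receptor genes' median, at 5.62 against 5.23 and 5.14. Under Etopo both KO arrays, 6.24 and 6.26, lay above the WT arrays, 6.10, 6.22 and 6.09, by an estimate of 0.11 that did not pass the test, an order found in 29.2% of all genes.

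Sag encodes S-arrestin, which helps to end the light signal in photoreceptors. Sag (chr1:87798143-87845158) read 7.58, 7.60 and 7.49 in KO DMSO MECs, against 7.62, 7.90 and 7.84 in WT DMSO MECs. The KO arrays lay below the WT arrays, an order found in 18.2% of all genes, by a change of −0.23 ± 0.11 that did not pass the test (SE, limma adjusted p = 0.171). With both agents the order was the opposite. KO EtopoTopo MECs read 7.93 and 7.90, against 7.66, 7.62 and 7.53 in WT EtopoTopo MECs, a change of 0.31 ± 0.12 (SE, limma adjusted p = 0.119) that is among the 14.6% of genes with all KO arrays higher and that reached 0.34 after quantile normalization (limma adjusted p = 0.0486).

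Among the other proteins of the light response, Opn1sw encodes the short-wavelength cone opsin and Pde6b the beta subunit of the rod cyclic GMP phosphodiesterase. Pde6b (chr5:108388373-108431743) read 5.76, 5.97 and 5.97 in KO DMSO MECs, against 6.10, 6.51 and 6.14 in WT DMSO MECs. The groups did not overlap, with KO lower, as in 18.2% of all genes. The change of −0.35 ± 0.12 was just outside the threshold (SE, limma adjusted p = 0.0531). It was −0.42 without WT DMSO 1 (limma adjusted p = 0.0302) and −0.22 without WT DMSO 2 (limma adjusted p = 0.313). Opn1sw (chr6:29376671-29380513) read 5.22, 5.47 and 5.40 in KO DMSO MECs, against 5.38, 5.99 and 5.75 in WT DMSO MECs, a change of −0.34 ± 0.19 (SE, limma adjusted p = 0.256) between overlapping groups.

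Of the structural proteins, Prph2 is a tetraspanin that shapes the rims of outer segment discs, and Rp1 binds the microtubules of the photoreceptor axoneme. Prph2 (chr17:46910478-46924933) read 6.82, 7.39 and 7.28 in KO DMSO MECs, against 7.35, 7.62 and 7.42 in WT DMSO MECs, a change of −0.30 ± 0.15 (SE, limma adjusted p = 0.180). The groups overlapped by 1 KO array. Rp1 (chr1:4115673-4409266) read 5.32, 5.02 and 5.23 in KO DMSO MECs, against 5.24, 5.42 and 5.02 in WT DMSO MECs, a change of −0.04 ± 0.16 (SE, limma adjusted p = 0.916) that was 0.09 after quantile normalization. The receptor genes' median was 5.04 to 5.40 on these DMSO arrays. Levels of different probes compare only roughly, but Rp1 lay near this level in both genotypes, so its test says little about a fall.

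Crx is the homeodomain factor that drives many photoreceptor genes and is also active in the pineal gland. Crx (chr7:15865947-15879955) read 5.57, 5.85 and 5.87 in KO DMSO MECs, against 6.12, 6.30 and 5.88 in WT DMSO MECs. The highest KO array and the lowest WT array nearly met, and the change was −0.34 ± 0.19 (SE, limma adjusted p = 0.248). With Gnat1, Sag and Pde6b, it makes 4 of 8 antigens whose KO arrays all lay below their WT arrays under DMSO, a pattern seen in 18.2% of all genes. For the 7 antigens not called, the lower bounds of the 95% intervals ran from −0.38 for Rp1 to −0.75 for Opn1sw.

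Among these 7, the order was less regular with the agents. Under Topo the KO arrays of Prph2, 6.97, 7.37 and 7.29, lay below the WT arrays, 7.60, 7.43 and 7.46, and those of Pde6b, 5.90, 5.98 and 5.96, below 6.18, 6.04 and 6.26, with changes of −0.28 and −0.21 that did not pass the test. This order was found in 21.5% of all genes under Topo. Over all 8 antigens 7 estimates were below 0 under Topo, 2 under Etopo and 1 under EtopoTopo, with medians of −0.24, 0.09 and 0.20. Over all genes the medians were −0.04, 0.04 and 0.03, and over the receptor genes 0.05, 0.08 and 0.11. The EtopoTopo count and median turned on KO EtopoTopo 1, without which 6 of 8 estimates were below 0 with a median of −0.05. The Etopo median was 0.05 without KO Etopo 1 and 0.14 without WT Etopo 2.

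**Figure D2:**
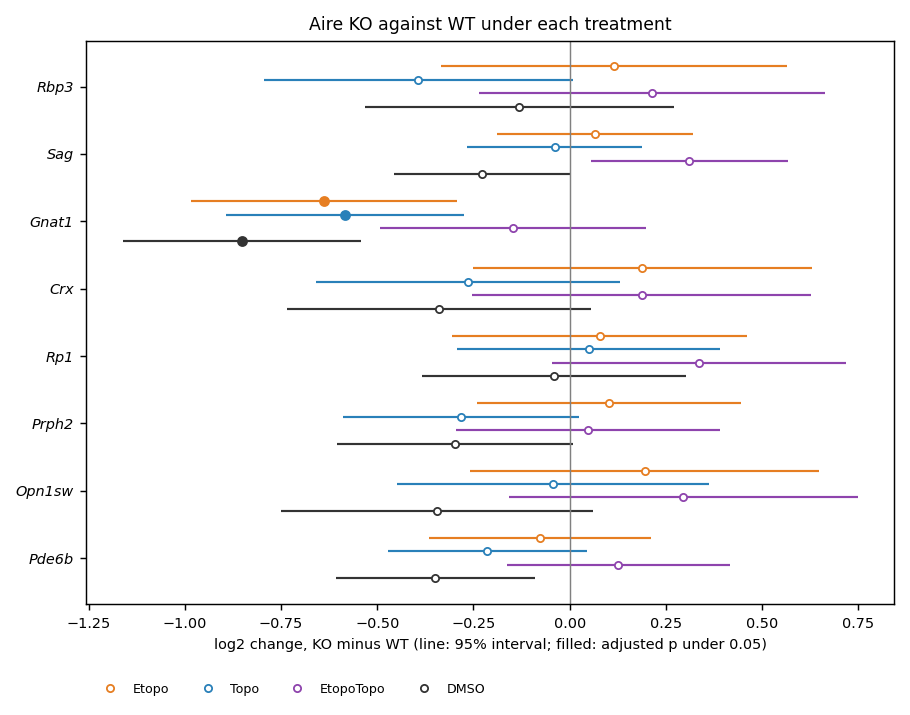
Log2 change in KO relative to WT MECs for each antigen under Etopo, Topo, EtopoTopo and DMSO, with 95% intervals from limma; filled points passed the adjusted threshold. Only Gnat1 has filled points, at −0.64, −0.58 and −0.85 under Etopo, Topo and DMSO, and its EtopoTopo estimate is −0.15.

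Because Crx is one of the antigens, the promoter windows of the set were searched for its binding letters. The RefSeq promoter table (GRCm38.p6), which spans 250 bases before to 50 after each start, matched 6 of the 8 antigens, Gnat1 and Rp1 being the others. The motif TAATCC or its complement GGATTA, searched on both strands, stood in 3 of these 6 windows, those of Crx, Rbp3 and Sag, and in 7.06% of 32851 windows of the table. The 100 bases that hold the matches are shown for these 3 genes on the strand of the gene, with the matches in capitals. The Crx window, chr7:15879961-15880060 on the minus strand, has 2 matches, the Rbp3 window is chr14:33953887-33953986 and the Sag window chr1:87803546-87803645, both on the plus strand, the last upstream of a start that lies inside the span of Sag given above.
Crx: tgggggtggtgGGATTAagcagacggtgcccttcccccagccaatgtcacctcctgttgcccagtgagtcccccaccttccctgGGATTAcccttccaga
Rbp3: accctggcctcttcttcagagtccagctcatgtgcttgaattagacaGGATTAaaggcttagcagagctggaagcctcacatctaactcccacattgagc
Sag: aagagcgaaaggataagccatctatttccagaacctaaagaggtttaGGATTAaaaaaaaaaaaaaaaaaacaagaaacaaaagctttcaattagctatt
The matches began 94 and 21 bases before the start for Crx, 69 for Rbp3 and 87 for Sag. None of these 3 genes passed the test between KO and WT under any treatment. A match is a description of letters and says nothing about whether the factor bound there.

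With a single agent, none of the 8 antigens passed the test in either genotype, and 0 had an unadjusted p under 0.05 in limma. In WT MECs, Etopo against DMSO gave a median of −0.15 over the antigens, with 8 of 8 estimates below 0, where 61.0% of all genes were below 0, the receptor genes' median was −0.08 and 0.00506% of all genes were called. Without WT DMSO 2 it was 6 of 8, with a median of −0.05. Topo gave a median of 0.01 in WT MECs, from −0.13 without WT DMSO 1 to 0.10 without WT DMSO 2, and 2.21% of all genes were called. In KO MECs the median was 0.14 with Etopo, with 0 of 8 below 0. There 46.1% of all genes were below 0 and the receptor genes' median was 0.08. With Topo the KO median was 0.05, with 1 of 8 below 0. There 48.8% of all genes were below 0 and the receptor genes' median was 0.17. This Topo median was −0.02 without KO DMSO 1 and 0.09 without KO DMSO 3. The called percentages of all genes in KO were 0 with Etopo and 1.03 with Topo. At an unadjusted p under 0.05 limma listed 707 of 19752 genes for Etopo in KO and 1097 for Etopo in WT. The WT Topo arrays of Gnat1, 7.15, 7.20 and 7.29, all lay below the WT DMSO arrays, 7.63, 7.38 and 7.36, as in 11.4% of all genes, but the change of −0.24 ± 0.15 did not pass the test (SE, limma adjusted p = 0.639).

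Gnat1 fell in WT MECs with both agents, the 1 antigen of 8 that was called there. WT EtopoTopo MECs read 7.04, 6.80 and 7.10, all below the WT DMSO arrays, an order found in 18.5% of all genes. The change was −0.47 ± 0.15 (SE, limma adjusted p = 0.0442), with a 95% interval of −0.78 to −0.16. The called percentage of all genes was 10.9, with 7.28 lower. There were 711 calls higher and 1438 lower over all genes, against 1380 and 1580 after quantile normalization, and the olfactory and vomeronasal receptor genes had a median of 0.31. The call was lost in each of 6 fits that left out 1 array (limma adjusted p from 0.0558 to 0.194), with changes of −0.53 to −0.38. It was also lost with age in the fit, at −0.39 (limma adjusted p = 0.347), and without the 2 arrays of conflicting labels, at −0.35 (limma adjusted p = 0.451). Tuft-like markers moved with this change: 10 of 11 rose and 0 fell, with list means of 10.35 to 10.47 on the WT EtopoTopo arrays against 9.16 to 9.42 on the WT DMSO arrays. Of 19 mature MEC markers 4 fell and 0 rose, and the Aire probe read 12.03, 11.27 and 11.75 in WT EtopoTopo MECs, against 12.26, 12.24 and 12.44 in WT DMSO MECs. The part of these shifts in the Gnat1 change was not tested.

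In the same comparison Pde6b read 5.88, 6.04 and 6.10 in WT EtopoTopo MECs, against 6.10, 6.51 and 6.14 in WT DMSO MECs. Its change of −0.24 ± 0.12 did not pass the test (SE, limma adjusted p = 0.218), but −0.36 after quantile normalization did (limma adjusted p = 0.0428).

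In KO MECs 2 antigens rose with both agents, Opn1sw and Sag, where 22.8% of all genes were called, 11.1% higher and 11.7% lower. Opn1sw read 6.59 and 5.77 in KO EtopoTopo MECs, against 5.22, 5.47 and 5.40 in KO DMSO MECs. The 2 drug arrays lay far apart, both above the vehicle arrays. The change was 0.82 ± 0.22 (SE, limma adjusted p = 0.0168), with a 95% interval of 0.36 to 1.27. Sag read 7.93 and 7.90 in KO EtopoTopo MECs, against 7.58, 7.60 and 7.49 in KO DMSO MECs, a change of 0.36 ± 0.12 (SE, limma adjusted p = 0.0418). Its drug arrays stood close together and above all vehicle arrays. All drug arrays lay above all vehicle arrays in 27.3% of genes.

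All 8 estimates in this comparison were above 0, with a median of 0.31, against 0.06 over all genes and 0.50 over the 1178 olfactory and vomeronasal receptor genes. The antigens' median was 0.08, with 3 of 8 below 0, without KO EtopoTopo 1, and 0.58 without KO EtopoTopo 2. Of 19 mature MEC markers 8 fell and 0 rose here. These receptor genes serve here as a reference for low signals. Whether they are silent in MECs was not tested, nor was the part of low signals in the antigens' values. After quantile normalization the receptor genes' median was 0.16, 5 of 8 antigens had estimates below 0, and neither call was kept, with Opn1sw at 0.46 (limma adjusted p = 0.0544) and Sag at 0.28 (limma adjusted p = 0.0991). Without KO EtopoTopo 1, Opn1sw was at 0.40 (limma adjusted p = 0.492) and Sag at 0.35 (limma adjusted p = 0.342). Without KO EtopoTopo 2, 4 antigens were called higher, among them Opn1sw at 1.23 and Gnat1 at 0.60, and KO EtopoTopo 1 gave the higher of the 2 values for all 8 antigens. Both of these fits leave a single KO EtopoTopo array and take the spread from the other groups. The Sag call was lost in each of 5 fits that left out 1 array, and the Opn1sw call in 1 of 5. With age in the fit, Opn1sw was at 0.83 (limma adjusted p = 0.197) and Sag at 0.29 (limma adjusted p = 0.325). The age slope there comes only from WT DMSO and WT Etopo, the groups of mixed age. That fit therefore cannot separate age from treatment within KO.

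**Figure D3:**
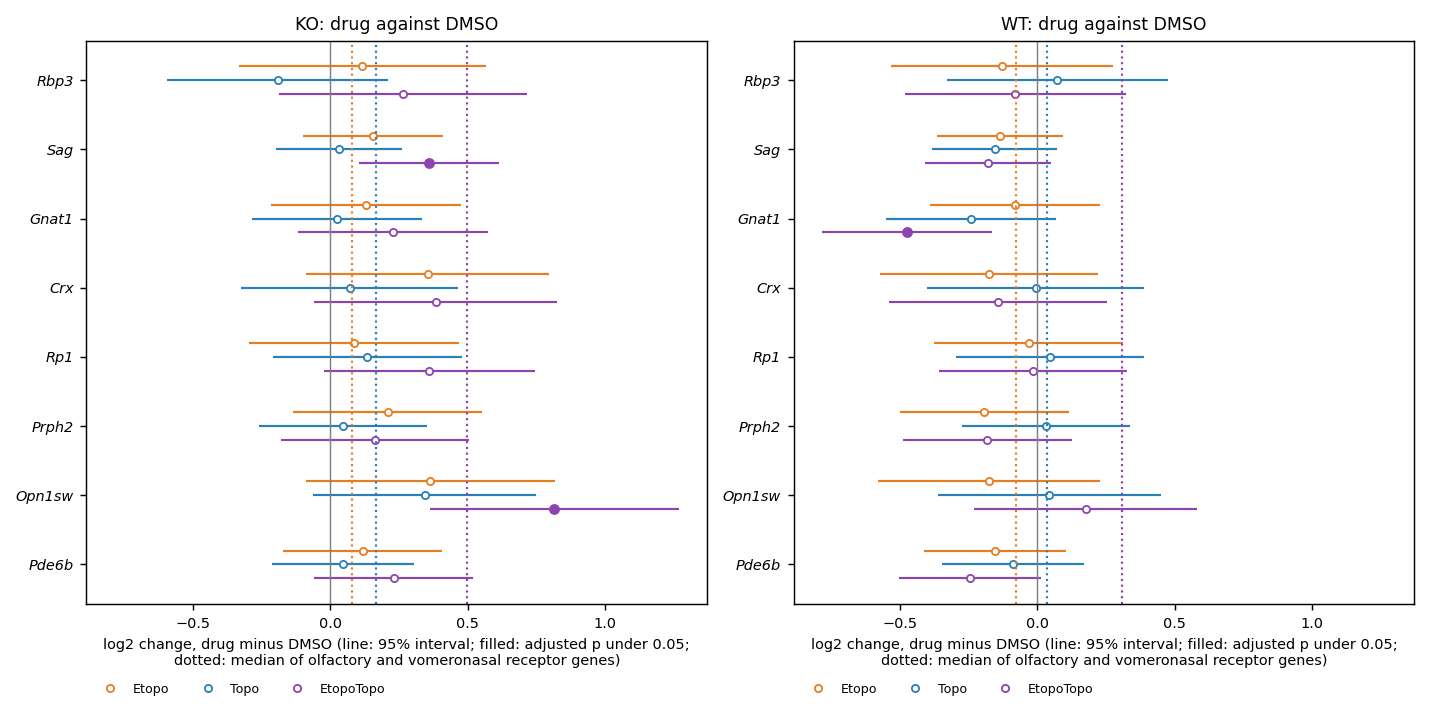
Log2 change of each antigen with Etopo, Topo or EtopoTopo relative to DMSO, in KO and in WT MECs, with 95% intervals from limma and dotted lines at the median of the olfactory and vomeronasal receptor genes; filled points passed the adjusted threshold. The filled points are Opn1sw at 0.82 and Sag at 0.36 in KO EtopoTopo MECs and Gnat1 at −0.47 in WT EtopoTopo MECs.

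The difference between the genotypes in the drug response was tested as an interaction, the KO change minus the WT change. For both agents together it was 0.70 ± 0.22 for Gnat1 (SE, limma adjusted p = 0.112), 0.54 ± 0.16 for Sag (0.0990) and 0.64 ± 0.29 for Opn1sw (0.313), so a different response of KO and WT MECs was not shown for any antigen, although 4 of 8, these 3 and Pde6b, had an unadjusted p under 0.05, as did 14.7% of all genes. The median over the 8 antigens was 0.50, against 0.19 over the receptor genes and 0.03 over all genes, of which 2.46% were called. The antigens' median was 0.25 without KO EtopoTopo 1 and also 0.25 after quantile normalization. No antigen was called for Etopo or Topo either, where 0% and 0.0759% of all genes were. For Etopo all 8 interaction estimates lay above 0, with a median of 0.28, against 0.16 over the receptor genes and 0.04 over all genes. After quantile normalization 1 of 8 was below 0 for Etopo, with a median of 0.17. Without KO EtopoTopo 2, which leaves KO EtopoTopo 1 as the only array of its group, 5 antigens were called for both agents together. Without KO EtopoTopo 1 none was, and Gnat1 was at 0.33 (limma adjusted p = 0.954).

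The genes on either side of Gnat1 were lower in KO MECs as well. Of the 16 nearest measured genes on either side of the 8 antigens, 2 fell and 0 rose in KO DMSO MECs, a share near the 12% of all genes called lower, and both flank Gnat1. Slc38a3, a glutamine transporter gene 5469 bases to its left, changed by −1.75 ± 0.13 (SE, limma adjusted p = 1.68e-09). Sema3f, which encodes a secreted guidance factor and lies 1865 bases to its right, changed by −0.37 ± 0.12 (SE, limma adjusted p = 0.0357). Both genes were also lower in KO MECs under Etopo, Topo and EtopoTopo, with changes for Slc38a3 of −1.44, −1.32 and −0.91 and for Sema3f of −0.64, −0.71 and −0.77. In WT MECs with both agents the neighbours parted. Slc38a3 fell by 0.95 (limma adjusted p = 8.61e-05), while Sema3f was at 0.32 and did not pass the test (limma adjusted p = 0.0905). The median over the 16 neighbours in KO against WT DMSO MECs was −0.12.

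**Figure D4:**
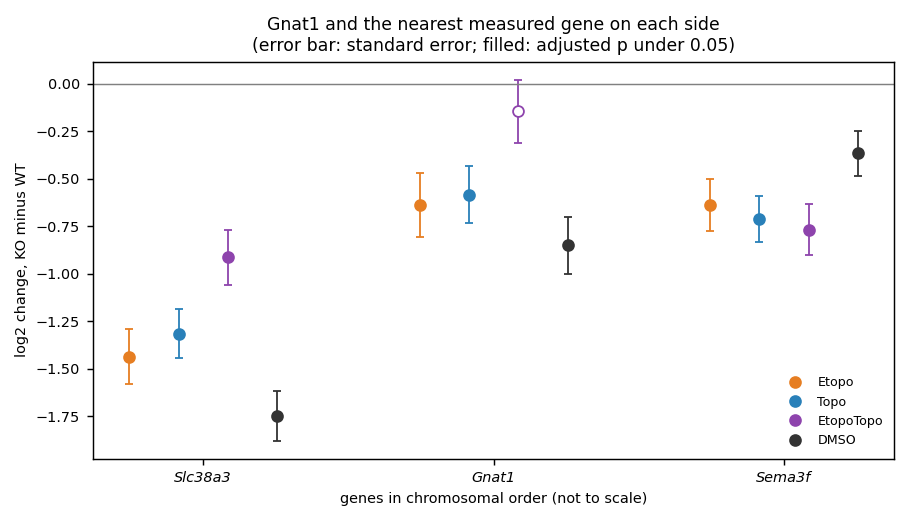
Log2 change of Gnat1 and its nearest measured neighbours, Slc38a3 and Sema3f, in KO relative to WT MECs under Etopo, Topo, EtopoTopo and DMSO, with the SE from limma as error bars; filled points passed the adjusted threshold. All 3 genes lie below 0 under every treatment, Gnat1 with EtopoTopo by −0.15, which did not pass the test.

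The genes whose group means followed those of Gnat1 most closely were Nms, which encodes the neuropeptide neuromedin S, Tmem117 and Il5, which encodes a cytokine of eosinophils. Pearson's r over the 8 group means was 0.998 for Nms, 0.997 for Tmem117 and 0.996 for Il5, and over the 22 arrays 0.871, 0.559 and 0.866. These are descriptions, since Gnat1 and the others were read on the same arrays and the 3 were picked from all genes by this value. Between KO and WT DMSO MECs the change was −1.38 for Nms, −0.18 for Tmem117 and −1.69 for Il5.

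Among the antigens themselves, array-to-array variation within groups was partly shared. After the group means were removed, r over the 22 arrays was 0.76 between Crx and Pde6b and 0.69 between Rbp3 and Crx, but −0.36 between Sag and Gnat1. The arrays, and with them their overall range of signal, are common to all 8 genes. WT DMSO 2 gave the highest WT DMSO value for Rbp3, Sag, Crx, Rp1, Prph2, Opn1sw and Pde6b, but not for Gnat1, whose highest value was on WT DMSO 1.

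Other eye genes, in 7 lists of photoreceptor, visual cycle, lens, retinal neuron and pineal genes, were measured for 105 of 116 names. In KO DMSO MECs 28 of the 105 fell (26.7%, against 12% of all genes) and 10 rose (9.52%, against 7.4% of all genes). The cortical epithelial and the macrophage and dendritic cell markers described with Gnat1 fell in like shares, 3 of 10 and 4 of 13, and their part in these counts was not tested. The other marker lists described there had mixed calls or none. Among eye genes, falls were most frequent for lens and cornea (9 of 20), visual cycle (5 of 12) and retinal neurons (5 of 15). Of 25 phototransduction genes, 3 fell, a share like the 12% of all genes, and 1 rose, with a median of −0.10. Rcvrn, the calcium sensor recoverin, changed by −0.64 ± 0.17 (SE, limma adjusted p = 0.0103), Gnb5, a G protein beta subunit, by −0.44, and Gucy2f, a retinal guanylate cyclase, by −0.41. Grk1, a kinase that helps to end the light response, rose by 0.63 ± 0.14 (SE, limma adjusted p = 0.00296).

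Of 17 genes of photoreceptor structure and disease, 4 fell and 2 rose, with a median of −0.12. Prom1, which is needed to build outer segment discs, changed by −1.07 ± 0.16 (SE, limma adjusted p = 2.47e-05), Rd3, a partner of the retinal guanylate cyclases, by −0.98 ± 0.16 (0.000127), and Aipl1, a chaperone of the rod phosphodiesterase, by −0.83 ± 0.17 (0.00111). The fall of Rd3 took it to 7.03 ± 0.22 in KO DMSO MECs, against 8.01 ± 0.26 in WT DMSO MECs (SD, n = 3 each). Rom1, the disc rim partner of Prph2, rose by 0.42 (limma adjusted p = 0.0339). Of 10 photoreceptor transcription factor genes, 2 fell, Neurod1 by 0.53 and Rxrg by 0.47, and Thrb, the thyroid hormone receptor of cone patterning, rose by 0.48. Nrl, the factor of rod identity, was at −0.07 (limma adjusted p = 0.850), and Otx2, which acts upstream of Crx, at −0.43 (limma adjusted p = 0.0807).

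**Figure D5:**
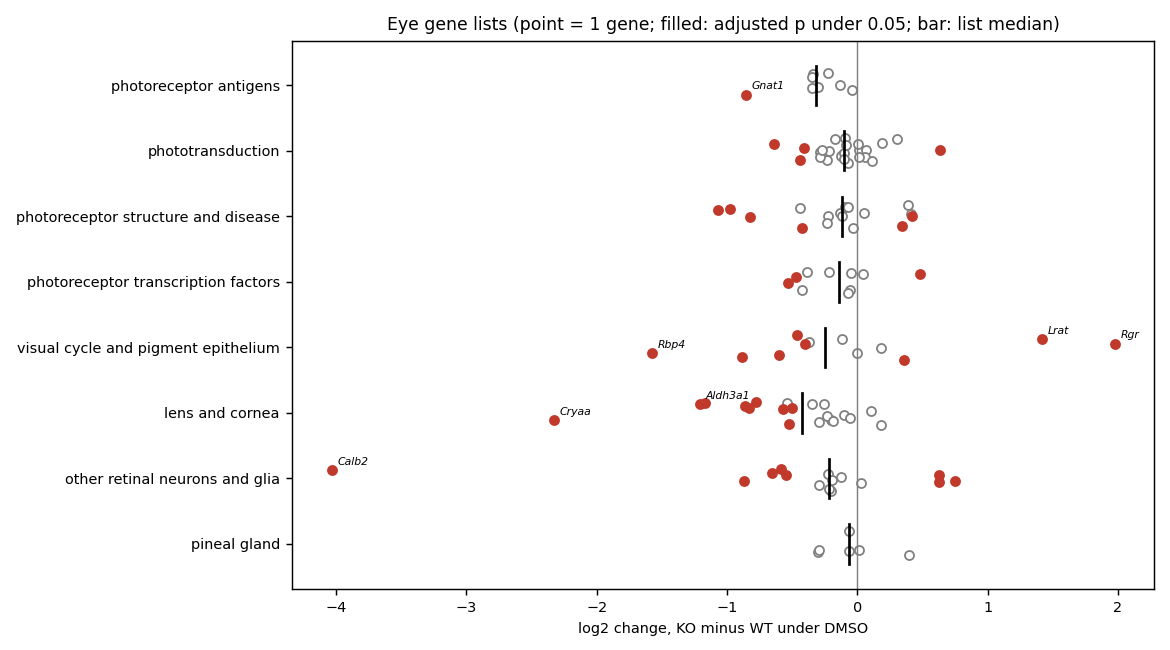
Log2 change in KO relative to WT MECs under DMSO, with 1 point per gene, for the 8 antigens and the 7 lists of eye genes; filled points passed the adjusted threshold in limma, and called genes past 1.2 in either direction are named, as is Gnat1. The photoreceptor lists stay within about 1 of 0 apart from Prom1 at −1.07, while Cryaa at −2.33 and Calb2 at −4.03 lie further down.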

How the data were processed

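The deposited values are linear probe intensities of 22 Affymetrix arrays, made by the authors with RMA and Affymetrix Power Tools, per the submitters' processing notes, which give no versions. Log2 was taken without a pseudocount, since the planned design had assumed log2 values, and nothing else was normalized. Of 24922 probes, 21425 had 1 gene symbol in the platform annotation, 1399 several and 2098 none here. The probe with the highest mean was kept for each symbol, leaving 19752 genes, of which 19677 were in the RefSeq gene table (assembly GRCm38.p6) with 0 differing symbols. No filter on low values was used, so all 8 antigens were tested. limma 3.58.1 (R 4.3.3, data.table version 1.17.8) fitted 1 mean per group over all arrays (14 residual and 7.22 prior degrees of freedom), and p-values were adjusted over all genes. The fit was tested on simulated data.

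The antigens and gene lists were chosen with earlier results of these data known. Named were all antigens, up to 4 called genes per list with the largest change in KO against WT under DMSO and in EtopoTopo against DMSO in each genotype, Rom1, Nrl and Otx2 (another gene of the rule is not reported here), the nearest measured neighbours, and the 3 genes most like each antigen called in KO against WT under DMSO. Replicates correlated at 0.963 to 0.997. Same-numbered arrays of different groups did not deviate together as a rule. Over 71 pairs, r had a median of −0.05 and a range of −0.56 to 0.59, and 25 pairs were over 0.1. Of the 22 arrays, 9 correlated best with an array of their own number. KO DMSO 1 and WT DMSO 1, both high in thymocyte markers, share a number. The numbers were not used as pairs in the main fit, and a pairing of some arrays is not excluded. The arrays give no depth in counts, and their number limits the precision. Alternatives covered quantile normalization, an offset of 16, a mean log2 of at least 6, all probes, the replicate number, age, doubtful arrays, fits of only the groups compared, eBayes settings and leaving out each array.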

Additional observations from a re-analysis of the deposited data

Results flagged for a closer look

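No antigen was flagged, and groups of 2 or 3 arrays are too small for a test of single outlying arrays. Of the 105 measured eye genes, 5 (4.76%, against 2.46% of all genes) passed limma's test of the interaction for both agents. The interaction is the KO change minus the WT change, on the log2 scale. It was 0.884 for Rxrg, a retinoid receptor of cones (adjusted p = 0.00941), and 1.19 for Rbp4, the plasma retinol carrier (adjusted p = 0.00564). It was 1.07 for Rlbp1, the retinaldehyde-binding protein of the visual cycle (adjusted p = 0.0247), 1.48 for Cryaa, a lens crystallin (adjusted p = 0.0209), and 1.73 for Calb2, the calcium-binding protein calretinin (adjusted p = 0.00749). Rxrg, Rbp4, Cryaa and Calb2 fell with both agents in WT MECs, and Rlbp1 rose in KO MECs. The KO rise of Rlbp1 rests mostly on KO EtopoTopo 1. Rlbp1 read 7.44 there and 6.58 on KO EtopoTopo 2, against 6.16, 6.56 and 6.56 in KO DMSO MECs. Rlbp1 was also lower in WT EtopoTopo MECs, at 6.66, 6.85 and 6.97, than in WT DMSO MECs, at 7.39, 7.21 and 7.34. The levels under DMSO differed too: Calb2 read 6.12, 5.60 and 5.32 in KO MECs, against 9.72, 9.54 and 9.89 in WT MECs, so the interaction sets log2 changes from unlike levels side by side, and the part of the low KO signal in it was not tested.

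Without KO EtopoTopo 1 the limma interaction was 1.03 for Rxrg (adjusted p = 0.015) and 1.77 for Calb2 (adjusted p = 0.048), both kept, and 0.93 for Rbp4, 0.63 for Rlbp1 and 1.21 for Cryaa, all lost. These fits leave 1 KO EtopoTopo array, whose spread is assumed to be that of the other groups. After quantile normalization Rbp4 at 0.92 and Cryaa at 1.39 were kept, and Rxrg at 0.69, Rlbp1 at 0.84 and Calb2 at 1.28 were lost. None of the 5 passed without the 2 WT EtopoTopo arrays of conflicting labels.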

How the results depend on the processing

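The fall of Gnat1 in KO against WT under DMSO and under Topo kept its direction and call under every alternative run. The number of antigens called in KO against WT under DMSO was 1, and 2 with a mean log2 of at least 6 or with age in the fit, where Pde6b joined Gnat1. In KO against WT with EtopoTopo the number called was 0, and 1 after quantile normalization. For EtopoTopo against DMSO in WT it was 1, and 2 after quantile normalization, 0 with age, 0 without the arrays of conflicting labels, 0 without WT DMSO 1 and KO DMSO 1, and 0 in a fit of only the groups compared. For EtopoTopo against DMSO in KO it was 2, and 0 after quantile normalization, 1 with the low filter (which removes Opn1sw), 1 with the replicate block, 0 with age, 1 without WT DMSO 1 and KO DMSO 1, and 0 in a fit of only the groups compared. Leaving out 1 array gave 1 to 2 antigens in KO against WT under DMSO, 0 to 1 under Etopo, 1 under Topo and 0 to 2 under EtopoTopo. It gave 0 for EtopoTopo in WT, 0 to 4 in KO and 0 to 5 for the EtopoTopo interaction, and 0 for the single agents and their interactions. Apart from the cause given for the low filter, the causes were not tested. The age fits take their slope only from WT DMSO and WT Etopo, the groups of mixed age. The fit without the arrays of conflicting labels leaves WT EtopoTopo 3 alone in its group, here and in the counts below.

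Of the 105 eye genes, 38 were called in KO against WT under DMSO, 28 to 37 without 1 array. EtopoTopo in WT called 10, and 18 after quantile normalization, 3 without the arrays of conflicting labels and 7 to 11 without 1 array. EtopoTopo in KO called 19, and 9 after quantile normalization, 0 with age, 12 without WT DMSO 1 and KO DMSO 1, 0 in a fit of only the groups compared, 0 without KO EtopoTopo 1 and 54 without KO EtopoTopo 2. The counts of eye genes were added after the data were seen. The replicate block took the Sag call in KO EtopoTopo (0.34, limma adjusted p = 0.0675) and changed no other call of an antigen. Several antigens have low signals, Rp1 and Opn1sw the lowest under DMSO, and 2 or 3 arrays per group resolve only larger changes.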

Other observations

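Genes of the visual cycle, the lens and other retinal cells changed in both directions in KO against WT MECs under DMSO, the lens genes only downward among those called, where 12% of all genes were called lower and 7.4% higher. Of 12 genes of the visual cycle and pigment epithelium, 5 fell and 3 rose. Rgr, a light-driven retinal isomerase, rose by 1.98 ± 0.18 (SE, limma adjusted p = 3.9e-08) and Lrat, which esterifies retinol, by 1.42 ± 0.21 (4.17e-05). Rbp4 fell by 1.57 ± 0.15 (9.81e-08) and Rlbp1 by 0.88 ± 0.17 (0.000583). Of 20 lens and cornea genes, 9 fell and 0 rose, with a median of −0.42. Cryaa read 7.55 ± 0.38 in KO MECs and 9.88 ± 0.44 in WT MECs (SD, n = 3 each), a change of −2.33 ± 0.23 (SE, limma adjusted p = 1.17e-07). Aldh3a1, a crystallin of the mouse cornea, changed by −1.21, and the lens crystallins Cryba1 and Crygs by −1.17 and −0.86. Of 15 genes of other retinal neurons and glia, 5 fell and 3 rose. Calb2 changed by −4.03 ± 0.23 (SE, limma adjusted p = 2.97e-11), Glul, the glutamine synthetase of Müller glia, by −0.87, Aqp4, a water channel, by −0.65, and Prkca, a kinase of rod bipolar cells, by 0.75. None of 6 pineal genes was called.

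With both agents, 10 of the 105 eye genes fell in WT MECs (9.52%, near the 7.28% of all genes) and 0 rose, and 14 fell and 4 rose after quantile normalization. Lrat changed by −1.53, Calb2 by −1.47, Tph1, the first enzyme of serotonin synthesis, by −1.22, Cryaa by −1.11, and Rbp4 and Rxrg both by −0.98. In KO MECs 6 fell (5.71%, against 11.7% of all genes) and 13 rose (12.4%, near the 11.1% of all genes), and the count there was 0 without KO EtopoTopo 1. Tph1 fell in KO MECs too, by 0.90 (limma adjusted p = 0.0053), and the lens crystallins Crygd and Cryba2 rose by 0.97 and 0.70.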
